A study of Mus musculus with 4 samples.

Results

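The metallothionein genes Mt1 and Mt2, their zinc sensor Mtf1 and 5 zinc transporter genes were compared between CLP and CLP + MLT mice in kidney and in heart. These 8 genes were taken by symbol, through their Ensembl identifiers, from 55401 genes listed in each count table. The comparison asked how transcripts that bind, sense and move zinc differed between septic mice with and without melatonin (MLT). In cecal ligation puncture (CLP), the cecum is tied off and pierced so that gut bacteria reach the abdomen, and every library came from mice that had this operation. The C57BL/6 mice of the kidney groups were male and 8 weeks old. The CLP + MLT kidney group drank water with melatonin at 25 µg/ml for 14 days before the operation, and kidneys were taken 24 h after it. The CLP kidney group had no melatonin, and sham mice were not analysed here. The hearts were labelled C57BL/6, CLP or CLP + MLT, and no source used here gives their age, sex, dose or time. The melatonin libraries carry the number 4 after MLT in their titles, which is not explained.

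Each of the 4 groups was 1 library, and whether a library held 1 mouse or a pool is not given. There was therefore no replicate error, and each ratio compares 2 libraries, not 2 conditions. Intervals are exact 95% binomial (Clopper-Pearson) limits on the ratio of reads and cover counting error only, not the spread between mice. The reads have no molecular identifiers, so repeated copies of a molecule are counted as separate reads and the intervals can be too narrow. Levels are CPM, counts scaled to libraries of one common size with TMM factors within the tissue, and ratios are log2 of CLP + MLT over CLP with 0.5 counts added. A gene was said to rise or fall where the ratio reached 1.5-fold in either direction and the exact binomial test on the reads gave a p of at most 0.01. In bulk tissue, fewer cells of a type and less RNA per cell cannot be told apart.

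Reads on genes numbered 15883057 to 22927905 per library, of which mitochondrial genes took 14.8% and 24.2% in the CLP and CLP + MLT kidneys and 31.6% and 36.0% in the hearts. Reads in no annotated feature were 52.1% to 52.6% of those in a gene or in none, and how far this bears on the levels was not tested. The labelled tissues were checked by markers, with the 8 of the early (S1 and S2) proximal tubule summing to 7566 and 7959 CPM in the kidney libraries and the 7 cardiomyocyte markers to 31636 and 19852 CPM in the heart libraries. All 8 zinc genes averaged 10 counts or more over the libraries of each tissue and entered the comparison. In kidney 15.4% of 16932 genes passed both thresholds (7.80% higher and 7.58% lower), and in heart 15.9% of 15871 genes did (7.15% higher and 8.78% lower).

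Metallothioneins are small cytosolic proteins whose many cysteines hold zinc and copper ions, and their genes respond to metals, glucocorticoids and the cytokines of the acute phase. The transcription factor MTF1 senses free zinc and binds metal response elements in the promoters of Mt1, Mt2 and Slc30a1. Transporters of the ZnT family (Slc30 genes) move zinc out of the cytosol, to the outside or into vesicles, whereas those of the ZIP family (Slc39 genes) bring it into the cytosol. In sepsis, zinc moves from the blood into liver and other organs, and Slc39a14 is a ZIP gene known for its part in that response.

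The reading frames of Mt1 and Mt2 are shown because their cysteine codons define the family and because such alike neighbours could be confused by short reads. The sequences come from GENCODE M21 transcripts on GRCm38, run 5′ to 3′ on the plus strand of chromosome 8, and have their cysteine codons in capitals. The Mt1 frame lies within chr8:94179311-94180193 and the Mt2 frame within chr8:94172848-94173427, both interrupted by introns.
Mt1: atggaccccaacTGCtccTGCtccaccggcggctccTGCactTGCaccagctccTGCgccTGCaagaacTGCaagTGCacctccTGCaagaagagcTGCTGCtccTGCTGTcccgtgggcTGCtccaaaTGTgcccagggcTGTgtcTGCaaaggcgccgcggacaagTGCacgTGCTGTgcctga
Mt2: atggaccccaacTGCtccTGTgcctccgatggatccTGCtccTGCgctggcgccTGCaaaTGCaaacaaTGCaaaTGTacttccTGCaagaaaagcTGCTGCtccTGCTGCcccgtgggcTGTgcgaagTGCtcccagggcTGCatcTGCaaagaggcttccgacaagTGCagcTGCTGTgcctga
Both frames had 186 bases with the stop codon, and 20 of their 61 codons (32.8%) encoded cysteine, all 20 at the same places. The frames shared 148 of 186 bases (79.6%) at the same positions, and the longest identical run was 20 bases. No stretch of 50 bases of an Mt1 transcript occurred in a transcript of another gene, so reads of that length can be assigned to Mt1 or Mt2 by sequence.

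The promoters of both genes are shown because MTF1 is known to act through them. They are RefSeq sequences on GRCm38.p6, plus strand, from 250 bases before the annotated start to 29 bases after it, at chr8:94178839-94179117 for Mt1 and chr8:94172368-94172646 for Mt2. Capitals mark the metal response element core, TGCACNC or TGCGCNC on either strand, with N any base.
Mt1 promoter: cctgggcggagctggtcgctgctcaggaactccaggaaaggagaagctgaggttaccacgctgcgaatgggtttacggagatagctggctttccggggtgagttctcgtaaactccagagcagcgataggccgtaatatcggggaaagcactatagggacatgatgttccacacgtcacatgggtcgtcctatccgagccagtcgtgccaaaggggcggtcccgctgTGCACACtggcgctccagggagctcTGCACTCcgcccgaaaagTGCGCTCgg
Mt2 promoter: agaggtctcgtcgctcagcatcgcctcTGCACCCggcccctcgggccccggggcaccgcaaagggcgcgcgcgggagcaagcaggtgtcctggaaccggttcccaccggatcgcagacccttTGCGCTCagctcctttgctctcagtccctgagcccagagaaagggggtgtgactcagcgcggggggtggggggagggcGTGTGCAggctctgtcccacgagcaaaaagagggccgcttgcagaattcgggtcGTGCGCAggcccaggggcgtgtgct
By the RefSeq start, the Mt1 stretch held 3 cores, 1 of them before the start, and the Mt2 stretch held 4, of which 3 lay before it. The GENCODE span of Mt2 begins at chr8:94172664, after the end of the stretch, so by that start all 4 lie before it. Where transcription began was not measured, and sites outside the windows were not searched. In windows of 300 bases (250 before the start and 50 after), the cores numbered 2 in Slc30a1, 2 in Slc30a2, 0 in Mtf1, 0 and 1 in the pair of Slc39a8 windows and 0 in both Slc39a10 windows. Of 32851 RefSeq promoter windows of that length, 25.7% held at least 1 core, 7.11% at least 2, 1.97% at least 3 and 0.517% at least 4. The glucocorticoid response element, searched like the others on both strands, matched once in the Mt1 window and in 0.475% of all windows. The STAT site TTCNNNGAA, bound by the factor that carries IL-6 signals, was in 8.30% of windows and in 1 of the Slc39a10 windows. The antioxidant response element, written TGACNNNGC or TGAGNNNGC, was in 27.8% of windows and among the windows of Mt2, Mtf1, Slc30a1, Slc39a8 and Slc39a10. These matches describe letters in a window and say nothing of whether a factor was bound. The set of promoters had no entry for Slc39a14.

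Metallothionein transcripts fell in the heart library of the CLP + MLT group, Mt1 by 4.33-fold and Mt2 by 2.93-fold. In kidney Mt2 fell 2.03-fold, whereas Mt1 did not reach the fold threshold. Of the 8 genes, 3 passed both thresholds in kidney (15.4% of all genes did), with Slc39a8 higher (7.80% of all genes) and Mt2 and Slc30a2 lower (7.58%). In heart 4 passed (15.9% of all genes), with Slc30a2 higher (7.15%) and Mt1, Mt2 and Slc39a14 lower (8.78%). The median log2 ratio of the 8 genes was -0.27 in kidney and 0.0055 in heart, against 0.0029 and 0.0023 over all genes tested. With so few genes these shares are descriptions and show nothing particular to zinc genes.

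**Figure D1:**
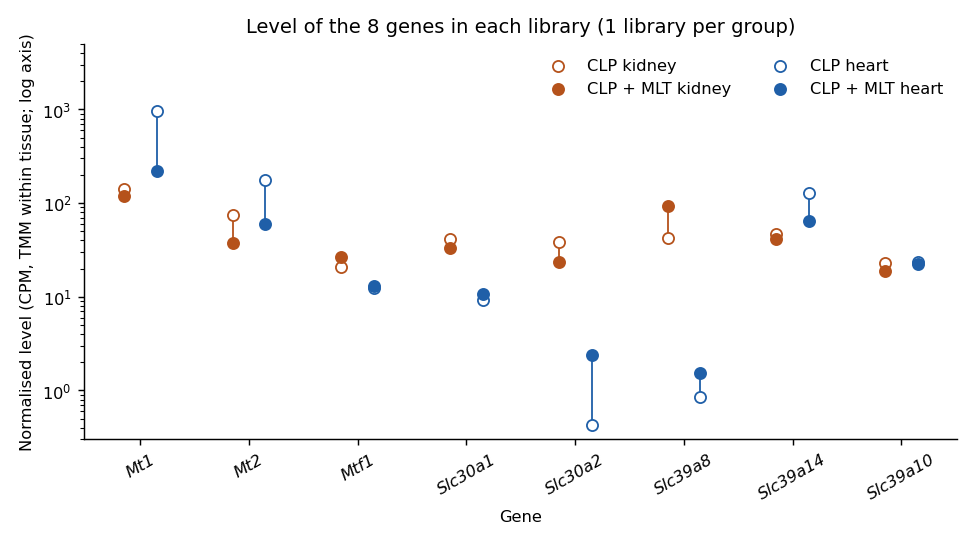
Normalised level of the 8 genes in each library, in CPM scaled by TMM within the tissue on a log axis; open circles are CLP, filled circles CLP + MLT, and a line joins the 2 libraries of a tissue (1 library per group, no error bars). Mt1 in the CLP heart, at 961 CPM, is the highest point, and Slc30a2 and Slc39a8 lie low in both hearts and high in both kidneys.

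Mt1 (ENSMUSG00000031765.8, chr8:94179082-94180327, plus strand) encodes metallothionein 1, a widely expressed isoform. It had 15667 reads (961 CPM) in the CLP heart and 3591 reads (222 CPM) in the CLP + MLT heart. The log2 ratio was -2.12 (-2.17 to -2.06), and 72 of 15871 genes in heart, Mt1 included, had a ratio that low. In kidney Mt1 had 3501 reads (143 CPM) with CLP and 1848 reads (120 CPM) with CLP + MLT, a log2 ratio of -0.25 (-0.33 to -0.17). The CLP heart thus stood far above the other 3 libraries, and the CLP + MLT heart was still above both kidneys.

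Mt2 (ENSMUSG00000031762.7, chr8:94172664-94173568, plus strand) lies just before Mt1 on the same strand and encodes the other widely expressed isoform. It had 2882 reads (177 CPM) in the CLP heart and 977 reads (60.3 CPM) in the CLP + MLT heart, a log2 ratio of -1.55 (-1.66 to -1.45). In kidney it had 1854 reads (75.6 CPM) with CLP and 573 reads (37.2 CPM) with CLP + MLT, a log2 ratio of -1.02 (-1.16 to -0.89). Mt2 was therefore lower in the CLP + MLT library of both tissues, with the CLP heart highest and the CLP + MLT kidney lowest. In kidney 801 of 16932 genes had a ratio as low as that of Mt2 and 4670 as low as that of Mt1, while 236 of 15871 heart genes were as low as Mt2.

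The remaining metallothionein genes were near the limit of detection. Mt3, best known from brain, had 1 and 3 reads in the CLP and CLP + MLT kidneys and 14 and 6 reads in the hearts (log2 ratio -1.15, -2.88 to 0.26). Mt4, an isoform of squamous epithelium, had 0 reads in all 4 libraries, which allows up to 3 reads in each.

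Short genes as a class were lower in the CLP + MLT heart, and the principal transcripts of Mt1 and Mt2 have 549 and 511 bases. Over all annotated exons, the length used below, Mt2 has 588 bases and Mt1 has 1246. Mt2 thus falls in the class under 1000 exonic bases and Mt1 lies outside it. In heart the 387 genes under 1000 exonic bases that averaged 100 counts or more had a median log2 ratio of -0.29, and 69.3% of them were lower with CLP + MLT. In kidney the 553 such genes had a median of 0.14, and 36.2% were lower. With the trend of the ratio on exonic length taken out, the heart log2 ratios were -1.96 for Mt1 and -1.40 for Mt2. Both metallothioneins were thus lower in the CLP + MLT heart with and without that trend.

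The reads of Mt2 also stand on both strands of an annotated pair. Gm45774 (ENSMUSG00000110588.1, chr8:94170748-94173412, minus strand) is an antisense gene that shares 432 exonic bases with Mt2, 73.5% of the 588 exonic bases of Mt2. It was given 2226 and 687 reads in the CLP and CLP + MLT kidneys and 3326 and 1229 reads in the hearts, more than Mt2 in every library. Mt2 took 45.4% and 45.5% of the summed reads in the kidneys and 46.4% and 44.3% in the hearts, so the split was nearly the same in all 4 libraries. The log2 ratio of Gm45774 was -1.02 (-1.15 to -0.90) in kidney and -1.43 (-1.52 to -1.33) in heart. The kit named in the labels is not stated to mark strand and the strand setting of the counting is not given, so reads from the stretch that Mt2 and Gm45774 share cannot be told apart. That stretch is 16.2% of the exonic bases of Gm45774, and 254 of 554 words of 50 bases in Mt2 transcripts (45.8%) lay in Gm45774, so reads from elsewhere can be assigned. Summed over both genes, the log2 ratio was -1.02 (-1.12 to -0.93) in kidney and -1.48 (-1.55 to -1.41) in heart, close to that of Mt2 alone. Levels of Mt2 against other genes rest on this split. In the CLP kidney the summed reads numbered 4080 (166 CPM), above the 3501 (143 CPM) of Mt1, and in the other 3 libraries they stayed below those of Mt1. The span of Mt1 overlapped no other annotated gene, so reads given to its other strand, if any, are not counted. The sum takes reads given to either strand and is not a like measure to the Mt1 count. Their order does not show which gene had more transcript.

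**Figure D2:**
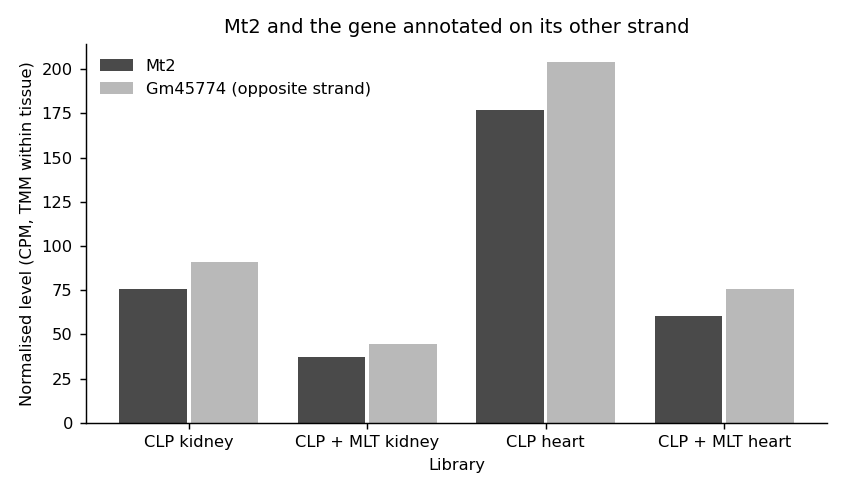
Level of Mt2 (dark bars) and of Gm45774, annotated on the opposite strand (light bars), in each of the 4 libraries, in CPM scaled by TMM within the tissue (1 library per group, no error bars). In every library the light bar is slightly higher, and both bars are lower with CLP + MLT in kidney and in heart.

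Mtf1 (ENSMUSG00000028890.13, chr4:124802104-124849800, plus strand), which encodes the zinc sensor, did not pass the thresholds in either tissue. It had 504 reads (20.5 CPM) and 410 reads (26.6 CPM) in the CLP and CLP + MLT kidneys, a log2 ratio of 0.37 (0.18 to 0.57). In the hearts it had 201 reads (12.3 CPM) and 212 reads (13.1 CPM), a log2 ratio of 0.09 (-0.20 to 0.37). The kidney ratio lay above 0 beyond counting error, and the heart ratio did not. It overlaps 1110065P20Rik on the other strand, which had 496 and 343 reads in the kidneys and 114 and 97 in the hearts. The protein and its binding of zinc were not measured.

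Slc30a1 (ENSMUSG00000037434.7, chr1:191906767-191913247, plus strand) encodes ZnT1, the zinc exporter of the cell surface and itself a known target of MTF1. It had 1010 reads (41.2 CPM) and 512 reads (33.3 CPM) in the CLP and CLP + MLT kidneys, a log2 ratio of -0.31 (-0.46 to -0.15). In the hearts it had 150 reads (9.20 CPM) and 172 reads (10.6 CPM), a log2 ratio of 0.21 (-0.12 to 0.53). Neither ratio reached the fold threshold, and the heart interval included 0. Whether MTF1 had a part in the ratios of Slc30a1 or the metallothioneins was not tested. An overlapping antisense gene, 1700034H15Rik, had 110 and 59 reads in the kidneys and 20 and 13 in the hearts.

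Slc30a2 (ENSMUSG00000028836.14, chr4:134343181-134354484, plus strand) encodes ZnT2, which loads zinc into vesicles. It had 947 reads (38.6 CPM) in the CLP kidney and 361 reads (23.4 CPM) in the CLP + MLT kidney, a 1.65-fold fall with a log2 ratio of -0.72 (-0.90 to -0.54). In the hearts it had 7 reads (0.429 CPM) with CLP and 39 reads (2.41 CPM) with CLP + MLT, a rise with a log2 ratio of 2.41 (1.31 to 3.89). Slc30a2 thus passed the thresholds in opposite directions in the tissues, from counts that were far smaller in heart. Beside its kidney fall, and that of Mt2, 4 of the 8 early proximal tubule markers were lower (Slc5a12, Slc5a2, Gatm and Slc22a6) and 1 was higher. Of all kidney genes, 7.58% were lower and 7.80% higher. The sum of the 8 markers was 7566 and 7959 CPM. None of the 8 was at 0. With 1 TMM fit over all 4 libraries, Slc5a12 stood at 34.8 and 3.48 CPM in the CLP and CLP + MLT kidneys. The part of these markers in the ratios of Slc30a2 and Mt2 was not tested. The difference between the tissues was not tested, since each group had 1 library.

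Kidney tubule markers were also read in the hearts. Of 25 such markers, 23 were tested in heart, among them 20 ratios above 0 and 3 below. Of these 23, 13 were higher and 0 lower with CLP + MLT, against 7.15% and 8.78% of all heart genes. Against the kidney library of the same treatment, with 1 TMM fit over all 4 libraries, Slc30a2 stood at 1.37% in the CLP heart and at 13.1% in the CLP + MLT heart. The 25 tubule markers stood at a median of 1.90% and 3.22% of their kidney level in the same hearts, up to 9.22% and 34.9% (Slc5a2 in both). These shares also move with the kidney level. On that fit, Slc5a2 was at 16.0 and 12.9 CPM in the CLP and CLP + MLT hearts but at 174 and 36.9 CPM in the kidneys. Of these markers, 3 of 25 stood at or above Slc30a2 in the CLP + MLT heart. Of the 15 markers with at least 100 CPM on that fit in the CLP + MLT kidney, 0 did, and their range was 1.13% to 7.42%. With TMM within the tissue, the 8 markers of the early proximal tubule summed to 172 CPM in the CLP heart and 271 CPM in the CLP + MLT heart (4 of 8 higher). The 5 collecting duct markers summed to 3.93 CPM in the CLP heart and 17.5 CPM in the CLP + MLT heart, all 4 of those tested being higher, while the 4 markers of the late (S3) proximal tubule summed to 18.6 and 32.4 CPM. No marker of these 3 lists was at 0 in a heart library. In the remaining tubule lists, Pvalb of the distal tubule had 0 and 20 reads in the CLP and CLP + MLT hearts. Cldn16 of the thick ascending limb had 1 and 0 reads there. The part of tubule RNA in the Slc30a2 values was not tested.

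Slc39a8 (ENSMUSG00000053897.15, chr3:135825279-135888572, plus strand) encodes ZIP8, an importer of zinc, manganese and iron. It had 1032 reads (42.1 CPM) in the CLP kidney and 1423 reads (92.4 CPM) in the CLP + MLT kidney, where the library was shallower. The log2 ratio was 1.14 (1.02 to 1.25), a 2.20-fold rise and the only rise among the 8 genes in kidney. The heart libraries held few reads of it, 14 (0.859 CPM) with CLP and 25 (1.54 CPM) with CLP + MLT, a log2 ratio of 0.82 (-0.15 to 1.90) that did not pass. Beside the rise of Slc39a8, the S3 proximal tubule markers summed to 1090 and 1585 CPM in the CLP and CLP + MLT kidneys. The macrophage markers summed to 93.0 and 154 CPM there. Of the S3 markers 1 of 4 was higher, and of the macrophage markers 1 of 5, against 7.80% of all kidney genes. All of these markers were detected in both kidneys, and their part in the Slc39a8 ratio was not tested.

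Slc39a14 (ENSMUSG00000022094.15, chr14:70303469-70351425, minus strand) encodes ZIP14, an importer of zinc, iron and manganese that is induced by IL-6 in liver. It had 2066 reads (127 CPM) in the CLP heart and 1046 reads (64.6 CPM) in the CLP + MLT heart, a 1.96-fold fall with a log2 ratio of -0.97 (-1.08 to -0.86). In kidney it had 1158 reads (47.2 CPM) and 641 reads (41.6 CPM), a log2 ratio of -0.18 (-0.32 to -0.04) that did not reach the fold threshold. Slc39a14 therefore ran as Mt1 did, highest in the CLP heart and past the thresholds in heart alone, though the difference between tissues was not tested.

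Slc39a10 (ENSMUSG00000025986.6, chr1:46807544-46892852, minus strand) encodes ZIP10, an importer of the cell surface whose gene is known to be held down by MTF1 when zinc is plentiful. It had 560 reads (22.8 CPM) and 288 reads (18.7 CPM) in the CLP and CLP + MLT kidneys, a log2 ratio of -0.29 (-0.50 to -0.08). In the hearts it had 382 reads (23.4 CPM) and 360 reads (22.2 CPM), a log2 ratio of -0.08 (-0.29 to 0.14). Neither ratio reached the fold threshold, and the 4 levels lay close together.

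**Figure D3:**
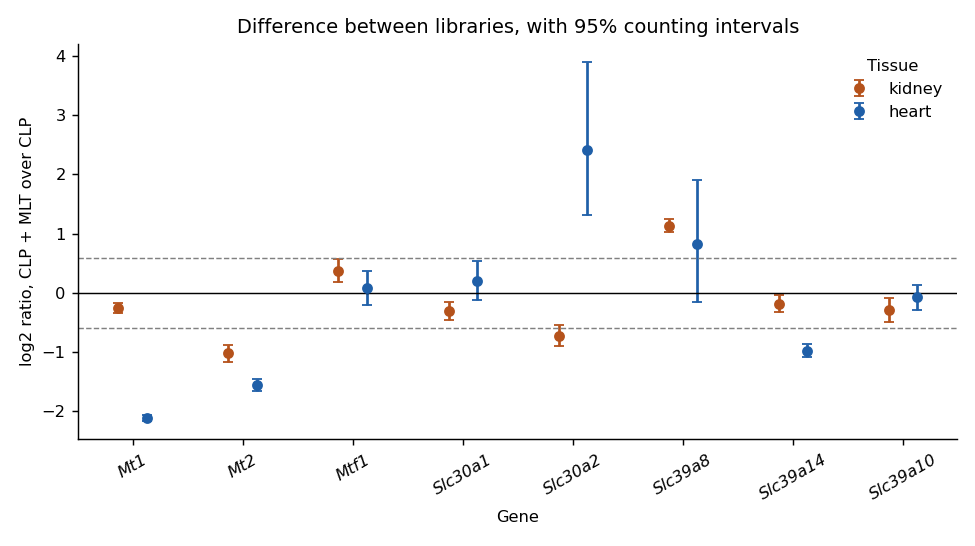
Log2 ratio of CLP + MLT over CLP for the 8 genes in kidney and heart, with exact 95% counting intervals as bars (1 library per group) and dashed lines at 1.5-fold in either direction. The lowest points are Mt1 and Mt2 in heart, at -2.12 and -1.55, and the highest is Slc30a2 in heart, at 2.41, which also has the widest bar.

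Levels of different genes were compared per length, in CPM per kb of the principal transcript with exact Poisson intervals. In the CLP kidney the order was Mt1 (260), Mt2 (148), Slc30a2 (12.2), Slc39a8 (11.9), Slc39a14 (9.58), Slc30a1 (7.85), Slc39a10 (4.15) and Mtf1 (2.69). The intervals of Slc30a2 and Slc39a8 overlapped, so those neighbours did not differ beyond counting error. In the CLP + MLT kidney, Slc39a8 (26.2) stood next after the metallothioneins. Slc39a14 (8.45) overlapped Slc30a2 (7.44), which overlapped Slc30a1 (6.34). Mt1 (219) and Mt2 (72.8) still led, and Mtf1 (3.49) and Slc39a10 (3.40) closed the order with overlapping intervals. In the CLP heart, Mt1 stood at 1750 CPM per kb and Mt2 at 346, followed by Slc39a14 (25.7), Slc39a10 (4.26), Slc30a1 (1.75), Mtf1 (1.62), Slc39a8 (0.243) and Slc30a2 (0.136). In the CLP + MLT heart the first 6 kept those places, at 404, 118, 13.1, 4.04, 2.03 and 1.72, ahead of Slc30a2 (0.764) and Slc39a8 (0.437). Slc30a1 and Mtf1 overlapped in both hearts, as did Slc39a8 and Slc30a2. Per kb of all annotated exons, Mt2 stood above Mt1 in the CLP kidney (129 against 115), so the order of that pair depends on the length used. With the reads given to Mt2 alone, it did not turn in the other 3 libraries. The split of reads between Mt2 and Gm45774 also bears on this order, which does not show which gene had more transcript.

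Between the tissues, Mt1 was 8.31-fold higher in heart than in kidney with CLP and 2.36-fold higher with CLP + MLT, with 1 TMM fit over the 4 libraries. Mt2 was 2.89-fold and 2.07-fold higher in heart, Slc39a14 3.31-fold and 1.98-fold, and Slc39a10 1.27-fold and 1.52-fold. Mtf1 in heart stood at 74.0% and 62.8% of its kidney level and Slc30a1 at 27.6% and 40.8%. Slc39a8 in heart was at 2.52% and 2.13% of kidney. The metallothioneins and Slc39a14 were thus on the heart side and Slc30a1, Slc30a2 and Slc39a8 on the kidney side under both treatments.

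Of all 10 Slc30 genes, 7 had enough reads to be compared in each tissue. In kidney 0 were higher and 1 was lower, Slc30a2, and the median log2 ratio was -0.31 with 6 of 7 below 0. That count is near the 15.4% of all kidney genes that passed. In heart 2 were higher and 0 lower (7.15% and 8.78% of all genes), with a median of 0.10. The second of them was Slc30a7, which encodes a transporter that fills the early secretory pathway with zinc and had 123 reads (7.54 CPM) in the CLP heart and 205 reads (12.7 CPM) in the CLP + MLT heart, a log2 ratio of 0.74 (0.42 to 1.08). Slc30a3, Slc30a8 and Slc30a10 fell under the filter in both tissues. Among these, Slc30a8, the zinc transporter of insulin granules, had 15 reads in the CLP kidney and 0 in the CLP + MLT kidney, with an upper limit of -1.17 on the log2 ratio.

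Of all 14 Slc39 genes, 12 could be compared in kidney and 11 in heart. In kidney 1 was higher, Slc39a8, and 1 was lower, Slc39a6, with a median log2 ratio of -0.18. In heart 1 was higher, Slc39a6, and 1 was lower, Slc39a14, with a median of 0.05. Both counts are near the shares of all genes that passed, 15.4% in kidney and 15.9% in heart. Slc39a6 encodes ZIP6, an importer related to ZIP10. It had 137 reads (5.58 CPM) and 44 reads (2.86 CPM) in the CLP and CLP + MLT kidneys, a log2 ratio of -0.96 (-1.49 to -0.47). In the hearts it had 33 reads (2.02 CPM) and 66 reads (4.08 CPM), a log2 ratio of 1.00 (0.39 to 1.66). It overlaps Elp2 on the opposite strand, which had 1029 and 713 reads in the kidneys and 2092 and 2527 in the hearts, so its counts are uncertain without strand. The genes left out were Slc39a4 and Slc39a12 in both tissues and Slc39a7 in heart, which had 13 and 4 reads there.

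**Figure D4:**
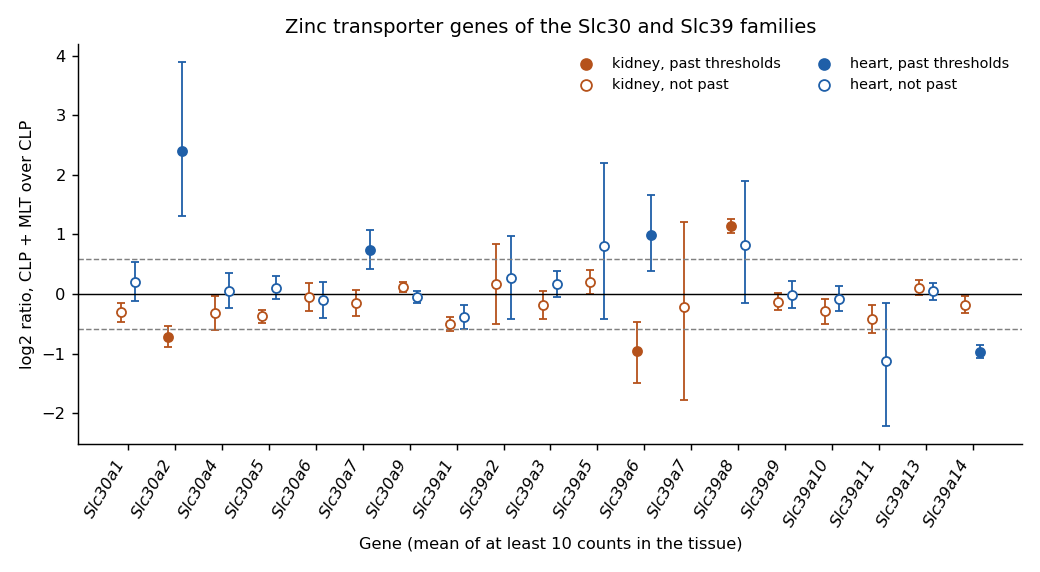
Log2 ratio of CLP + MLT over CLP for the Slc30 and Slc39 genes that averaged 10 counts or more, with exact 95% counting intervals as bars (1 library per group), filled where both thresholds were passed and open elsewhere. Most points lie between the dashed 1.5-fold lines, and Slc30a2 and Slc39a6 are filled on opposite sides of 0 in kidney and heart.

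A list of 10 genes known as targets of MTF1, including Mt1, Mt2 and Slc30a1, had 0 higher and 3 lower in kidney (7.80% and 7.58% of all genes) and 0 higher and 4 lower in heart (7.15% and 8.78% of all genes). The median log2 ratio was -0.30 in kidney and -0.16 in heart. Beside the metallothioneins, the iron exporter gene Slc40a1 was lower in both tissues (log2 ratio -0.71 and -1.19), Ndrg1 was lower in kidney (-0.79), and Pgf, a growth factor of the VEGF family, was lower in heart (-1.03). Further divalent metal transporters had 0 higher and 2 lower of 7 in each tissue (7.58% of all genes lower in kidney and 8.78% in heart), with the transferrin receptor gene Tfrc (-0.83) beside Slc40a1 in kidney and the macrophage metal transporter gene Slc11a1 (-0.78) beside it in heart. Both lists hold Slc40a1, so they are not separate counts. The MTF1 list also counts Mt2 in kidney, and Mt1 and Mt2 in heart, among its lower genes. Its counts and medians are therefore not separate from the metallothionein ratios given above.

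Copper, the other metal that metallothioneins bind, was covered by 11 genes. In kidney 0 were higher and 2 lower (7.80% and 7.58% of all genes), the copper ATPase gene Atp7a with 49 and 7 reads (log2 ratio -2.08) and the ceruloplasmin gene Cp (-0.68). In heart 0 of 10 tested were higher and 3 were lower (7.15% and 8.78% of all genes), the copper chaperone gene Atox1 (-0.84), Commd1 (-0.75) and Sco1 (-0.72). The medians were -0.04 and -0.27.

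Signals known to drive metallothionein genes were read from lists of IL-6 signalling and glucocorticoid response genes. Of 8 IL-6 signalling genes tested, 3 were lower and 0 higher in kidney (7.58% and 7.80% of all genes), the feedback inhibitor Socs3 (log2 ratio -1.21), the transcription factor Stat3 (-1.10) and the receptor chain Il6ra (-0.73). In heart, where both metallothioneins fell, 0 of 8 passed in either direction (15.9% of all genes did), and Il6 itself fell under the filter in both tissues. Of 8 glucocorticoid response genes, 4 were lower and 0 higher in kidney (7.58% and 7.80% of all genes), led by Zbtb16 at -1.94, Klf9 at -0.84 and Fkbp5 at -0.80. In heart 2 were lower, Fkbp5 at -1.53 and Zbtb16 at -0.98, and 0 higher (8.78% and 7.15% of all genes). The median log2 ratios were -0.24 and 0.02 for IL-6 signalling and -0.40 and -0.17 for the glucocorticoid list. Whether these signals had a part in the metallothionein values was not tested.

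Other cell types that carry metallothioneins were followed by their markers. Of all genes, 7.15% were higher and 8.78% lower in heart, and 7.80% and 7.58% in kidney. With so few markers in each list, the counts below are descriptions. In heart 3 of the 7 cardiomyocyte markers were lower. The 6 neutrophil markers summed to 52.1 and 38.3 CPM there (2 of 5 tested lower, Ly6g at 0) and 5 macrophage markers to 161 and 144 CPM (1 higher and 1 lower). The 4 hepatocyte markers summed to 14.5 and 7.66 CPM in the hearts, with Cyp3a11 at 0 in both and 2 of 3 tested lower. In kidney the neutrophil markers summed to 20.5 and 15.9 CPM (1 of 5 tested lower, Ly6g at 0) and the adipocyte markers to 2.65 and 0.585 CPM (1 of 2 tested lower, Adipoq and Lep at 0). Going the other way there, the hepatocyte markers summed to 10.4 and 14.7 CPM (1 of 2 tested higher, Ahsg and Cyp3a11 at 0) and the macrophage markers to 93.0 and 154 CPM (1 of 5 higher). The endothelial markers summed to 207 and 158 CPM in the kidneys and 639 and 792 CPM in the hearts. The fibroblast markers summed to 131 and 112 CPM in the kidneys and 372 and 301 CPM in the hearts. The part of these cell types in the metallothionein ratios was not tested.

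Over the 4 libraries, the genes whose profile came closest to that of Mt1 were Pgam2, Zcchc17, Fam213b, Msr1 and Hhatl, out of 11796 genes averaging 100 counts or more. Likeness was the Euclidean distance between log2 CPM profiles centred on their own means, and it was 0.519 for Pgam2, the muscle form of phosphoglycerate mutase. Pgam2 had 1646, 1208, 6692 and 2226 reads in the CLP kidney, CLP + MLT kidney, CLP heart and CLP + MLT heart. Its log2 ratio was -1.58 in heart and 0.23 in kidney, so the fall was seen in heart alone. Closest to Mt2 was Gm45774 of the opposite strand (0.0881), followed by Fcgr3, Pnpla2, Lnx2 and Hfe. Fcgr3, which encodes an immunoglobulin receptor of myeloid cells, lay at 0.481, with log2 ratios of -0.87 in kidney and -0.89 in heart. With 4 libraries these likenesses are descriptions.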

How the data were processed

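Poly(A) RNA-seq libraries of CLP and CLP + MLT kidney and heart (1 each) were compared within each tissue. The authors mapped trimmed reads to mm10 with HISAT2 2.1.0 and deposited whole-number counts per Ensembl gene from HTSeq. No source used here gives the version, annotation or strand setting of HTSeq. The 5 closing rows, which name no gene (65.5% to 72.8% of each file), were left out. GENCODE M21 matched 55141 of 55401 identifiers and left 260 unmatched.

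Counts were scaled with TMM (edgeR 4.0.16, R 4.3.3) on genes that averaged 10 counts or more within the tissue. Ratios, exact binomial tests and Clopper-Pearson intervals were computed in Python 3.11.15 with scipy 1.17.1 at the fold of 1.5 and p of 0.01 named in the study's methods. Without replicates no dispersion could be estimated, so no p is printed. The ratio script was tested on simulated data. The alternatives changed the scaling (library size, DESeq2 1.42.0 size factors, upper quartile, 1 TMM fit over 4 libraries), the filter (none or 50), the prior count (5), the fold (2), the genes fitted, an assumed coefficient of variation (0.2 or 0.4), and a lowess trend (fraction 0.3) on exonic length or on GC content of the longest transcript, as no genome sequence was used.

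The 8 genes, the gene lists and the markers were chosen with earlier results of these data known. All 8 were named. Up to 6 further metallothionein, Slc30 or Slc39 genes past the thresholds were named per tissue, up to 3 of each other list, and the 5 genes most like Mt1 and Mt2. Mt3, Mt4 and genes under the filter were named as the rest of their families. The sum of Mt2 and Gm45774 and the exonic length were chosen after seeing the data.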

Additional observations from a re-analysis of the deposited data

Results flagged for a closer look

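Slc30a2 passed the thresholds in opposite directions in the tissues, with a log2 ratio of CLP + MLT over CLP of -0.72 in kidney and 2.41 in heart, where it had 7 and 39 reads. In that heart comparison 13 of 23 tubule markers were also higher and 0 lower, and their part in the Slc30a2 values was not tested. Slc39a6 also passed in opposite directions, at -0.96 in kidney and 1.00 in heart, on 137, 44, 33 and 66 reads. Slc39a6 overlaps Elp2 on the opposite strand, so its counts are uncertain without strand. Each tissue had 1 library per group, so the difference between tissues was not tested.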

How the results depend on the processing

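Of 208 ratios of the 8 genes under the alternatives, 196 kept their direction and their side of the thresholds. Another 12 kept the direction but no longer passed, and 0 reversed. Changes of the filter, the fold or the assumed spread leave the ratio itself as it was, so no reversal could occur there. A gene that had not passed could also not be lost at a stricter setting, so this tally is no measure of robustness. Of 104 recomputed counts, 79 stayed within 1.5 times. An assumed spread between mice moved most of the rest. At a coefficient of variation of 0.2 (edgeR exact test), 619 genes passed in kidney and 662 in heart, against 2604 and 2528 with counting error alone. Of the 8 genes, 1 then passed in kidney (Slc39a8) and 3 in heart (Mt1, Mt2 and Slc30a2), with 0 Slc30 and 1 Slc39 gene in kidney and 1 and 0 in heart. At 0.4, 90 and 63 genes passed, and 0 of the 8 genes, 0 Slc30 genes and 0 Slc39 genes did in either tissue.

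At a fold of 2, 1185 genes passed in kidney and 1259 in heart, with 0 Slc30 and 1 Slc39 gene in kidney and 1 and 0 in heart; Slc30a2 no longer passed in kidney, nor Slc39a14 in heart. With no filter 2 Slc30 genes passed in kidney. With a mean of at least 50 counts, 1 Slc30 and 1 Slc39 gene passed in heart, fewer genes being tested. Scaling by library size alone shifted the median log2 ratio of all kidney genes to -0.19, took the share of higher calls from 50.7% to 23.5% (727 higher and 2373 lower) and gave 4 Slc39 genes, 1 higher and 3 lower. On that scale, with its median at -0.19, Mt1 and Mt2 in kidney stood at -0.44 and -1.22. Over the alternatives the log2 ratio of Mt2 in kidney ran from -1.22 (library size alone) to -0.999 (upper quartile). In heart the log2 ratio ran from -2.12 to -1.96 for Mt1, from -1.55 to -1.40 for Mt2 and from 1.88 to 2.46 for Slc30a2.

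No paired analysis was possible because each group had 1 library and the labels give no replicate numbers, and leaving out a library would leave nothing to compare. The spread between mice is therefore unknown. Depth limits Slc30a2 in heart, with 7 and 39 reads and a wide interval, and genes such as Mt3, whose reads were too few to show a difference.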
